A study of Mus musculus with 6 samples.

Results

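The 32 genes described here make cholesterol and fatty acids, or control their making, in Tot2 cells, a myeloid progenitor line derived from an Irf8 knockout mouse. They were taken by name from 6 groups of roles: mevalonate and isoprenoid steps, squalene to lanosterol, lanosterol to cholesterol, control of the sterol regulatory element-binding proteins (SREBPs) with sterol transport, the core of fatty acid synthesis, and elongation with desaturation. Each was read through the array probes whose RefSeq accession belongs to it, and the brightest probe stood for the gene. All 32 had a probe, and 31 of them passed the filter on dim probes, among 13247 genes tested of 20263 with a probe. Scd1, a stearoyl-CoA desaturase, did not pass: its log2 signals were -6.38 and -7.36 in control, -6.65 and -7.42 in IRF8-labelled and -6.94 and -7.41 in KLF4-labelled cells, not well above background on any array.

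All cells carried the Irf8 knockout, grew in RPMI1640 with 20% fetal bovine serum and 5 ng/ml of the cytokine GM-CSF, and were transduced with a retrovirus. The control group received the empty MSCV-puro vector, the second group MSCV-IRF8FLAG and the third MSCV-KLF4FLAG, which encode the transcription factors IRF8 and KLF4 with a FLAG tag. Selection with 2 µg/ml puromycin began at 48 hr, and RNA was taken at day 4 from 2 independent experiments, giving 2 single-colour arrays per group and 6 in all. The line is a single cell line, and nothing in the labels gives the number of mice behind it. The study asked how gene expression stood in the monocyte-like cells that arise when either factor is given to these progenitors.

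Arrays of the same group correlated at r = 0.993 to 0.995 over the genes tested, and arrays of different groups at 0.888 to 0.960. The 75th percentile of the processed signal ranged from 362 to 784 over the 6 arrays, and no spot was saturated. As a check of the labels, Irf8 had log2 signals of 0.75 and 0.90 in control cells, 3.21 and 3.33 in cells labelled IRF8 and 2.46 and 2.47 in those labelled KLF4. Klf4 had -1.37 and -1.02, then 4.73 and 4.89, then -1.28 and -1.01. The Klf4 probe was therefore not higher on the arrays labelled KLF4 than on the control arrays (log2 difference 0.04, limma adjusted p = 0.877). Where that probe lies relative to the transduced coding sequence was not tested, so the groups go by their labels, IRF8-labelled or KLF4-labelled, on which every direction below rests. Monocyte and macrophage markers were higher in both labelled groups: the summed signal of 10 such genes, in multiples of each array's 75th percentile, was 37.3 and 30.3 in control, 340.0 and 340.3 in IRF8-labelled and 116 and 112 in KLF4-labelled cells. Summed signal of 10 neutrophil and granule genes was 3621 and 2751, 929.6 and 756, and 2845 and 1917 in the same order.

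Cells make cholesterol from acetyl-CoA through mevalonate, farnesyl diphosphate, squalene and lanosterol, and the same acetyl-CoA feeds fatty acid synthesis. The pathway is governed by SREBPs, membrane-bound transcription factors encoded by Srebf1 and Srebf2. When sterols are low, the escort protein Scap carries an SREBP from the endoplasmic reticulum to the Golgi, where it is cut and released to the nucleus, and when sterols are high, Insig1 and Insig2 hold the complex back. In the nucleus SREBPs bind sterol regulatory elements beside sites for NF-Y, which binds CCAAT, and Sp1, which binds GGGCGG. Macrophages also take up sterols from lipoproteins and dead cells, and dispose of the surplus through the liver X receptors (LXRs) and the transporters these receptors induce.

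Promoters are shown for 3 sterol genes, 2 fatty acid genes and Insig1, all described below, to show how the number of CCAAT boxes varies among them, from 4 to none in Elovl6. RefSeq promoters (GRCm38.p6), from 250 bases before to 50 after an annotated start, were matched for 25 of the 32 genes, with 33 sequences. Lower-case runs are 5′ to 3′ on the gene's strand, and capitals mark CCAAT on either strand (ATTGG is CCAAT read on the other strand, and CCAATTGG holds both) or, in Hmgcs1, the sterol regulatory element core TCACNCCAC. Hmgcs1 lies at chr13:119690101-119690400, plus strand, Msmo1 at chr8:64733529-64733828, minus strand, and Nsdhl at chrX:72918271-72918570, plus strand. Fasn lies at chr11:120824498-120824797, minus strand, Elovl6 at chr3:129532136-129532435, plus strand, and Insig1 at chr5:28071162-28071461, plus strand.
Hmgcs1: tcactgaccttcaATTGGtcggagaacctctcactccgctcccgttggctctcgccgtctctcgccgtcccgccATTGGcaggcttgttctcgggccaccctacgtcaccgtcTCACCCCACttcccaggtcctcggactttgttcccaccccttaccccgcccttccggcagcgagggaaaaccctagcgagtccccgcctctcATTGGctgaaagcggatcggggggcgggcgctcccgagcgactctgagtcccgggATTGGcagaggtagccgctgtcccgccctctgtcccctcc
Msmo1: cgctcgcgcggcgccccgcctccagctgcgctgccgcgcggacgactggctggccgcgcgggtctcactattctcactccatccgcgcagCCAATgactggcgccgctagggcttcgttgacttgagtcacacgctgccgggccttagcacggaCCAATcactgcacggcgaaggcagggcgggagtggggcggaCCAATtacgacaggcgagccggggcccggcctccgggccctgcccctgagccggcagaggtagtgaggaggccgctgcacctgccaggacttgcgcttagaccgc
Nsdhl: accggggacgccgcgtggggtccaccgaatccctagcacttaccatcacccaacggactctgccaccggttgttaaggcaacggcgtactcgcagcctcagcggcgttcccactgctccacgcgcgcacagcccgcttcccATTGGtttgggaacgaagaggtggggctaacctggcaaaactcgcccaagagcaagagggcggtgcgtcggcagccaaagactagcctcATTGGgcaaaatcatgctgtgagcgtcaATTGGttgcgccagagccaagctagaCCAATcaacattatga
Fasn: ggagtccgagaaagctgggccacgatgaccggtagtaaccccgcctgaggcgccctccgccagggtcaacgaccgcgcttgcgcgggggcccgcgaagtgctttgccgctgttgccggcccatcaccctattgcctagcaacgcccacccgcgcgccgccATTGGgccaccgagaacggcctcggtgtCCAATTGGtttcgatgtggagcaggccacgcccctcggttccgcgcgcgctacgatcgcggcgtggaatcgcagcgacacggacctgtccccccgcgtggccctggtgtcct
Elovl6: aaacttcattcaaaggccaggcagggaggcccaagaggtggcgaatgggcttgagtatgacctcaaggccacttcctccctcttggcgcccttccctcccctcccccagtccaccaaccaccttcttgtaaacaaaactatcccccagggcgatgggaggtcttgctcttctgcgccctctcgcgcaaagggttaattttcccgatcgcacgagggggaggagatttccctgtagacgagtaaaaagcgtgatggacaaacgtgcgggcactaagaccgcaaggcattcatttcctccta
Insig1: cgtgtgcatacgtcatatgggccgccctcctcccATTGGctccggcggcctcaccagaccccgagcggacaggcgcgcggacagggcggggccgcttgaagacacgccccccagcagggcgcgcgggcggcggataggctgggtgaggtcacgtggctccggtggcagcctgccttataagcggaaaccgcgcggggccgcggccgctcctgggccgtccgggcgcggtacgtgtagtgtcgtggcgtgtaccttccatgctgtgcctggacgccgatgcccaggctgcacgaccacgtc
Hmgcs1 and Nsdhl each hold 4 CCAAT matches, Msmo1 and Fasn 3, Insig1 1 and Elovl6 none.

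Counting every promoter of a gene and both strands, 20 of the 25 genes (80.0%) held CCAAT, against 41.1% of the 27025 genes in the table. GGGCGG was in 21 of 25 (84.0%), against 38.2% of all genes, and CACGTG, an E-box that SREBPs can also bind, in 5 of 25 (20.0%), against 8.09%. TCACNCCAC was found in 1 of 25, Hmgcs1, where its offset from the start is -137 bases, against 1.44% of all genes. The match in Hmgcs1 overlaps none of the other motifs, and a match describes the sequence only. Fads1, Fdft1, Fdps, Scd1, Scd2, Sqle and Stard4 had no matched promoter.

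In IRF8-labelled cells Fdps, Fasn and Fads2 were the most reduced of the 31 genes, while Insig2 and Msmo1 were higher than in control cells. By limma with Benjamini-Hochberg adjustment over all 13247 genes and a threshold of 0.05, 2 of the 31 tested genes were higher and 15 lower. Among all genes tested, 26.1% were called higher and 34.9% lower, so the 48.4% of these genes that fell stands against a large background of falls, and the 6.45% that rose against a large background of rises. The median log2 difference was -0.33, against -0.11 over all genes, and 23 of 31 genes lay below control, or 74.2% against 55.6% of all genes. In 19 of 31 genes (61.3%) both IRF8-labelled arrays lay below both control arrays, against 45.2% of all genes. Between arrays of the same replicate number the median was -0.39 for replicate 1 and -0.28 for replicate 2.

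In KLF4-labelled cells nearly all differences pointed down, and the largest called one was 1.85-fold, against 2.79-fold in IRF8-labelled cells. Of the 31 genes 14 (45.2%) were called lower and none higher, where 5.68% of all genes tested were called lower and 10.4% higher. At an unadjusted p under 0.05, 22 were lower and none higher, where 18.9% of all genes were lower and 15.2% higher. The median log2 difference was -0.55, against -0.12 over all genes, and 29 of 31 genes (93.5%) lay below control, against 64.9% of all genes. Both KLF4-labelled arrays lay below both control arrays in 26 of 31 genes (83.9%), against 39.6% of all genes. The median was -0.53 between arrays of replicate 1 and -0.52 between those of replicate 2. With arrays scaled on their medians, 2 were called lower, beside 1.38% of all genes. The number of calls moved with the fit too, and the background moved with it. With the replicate number as a block, 24 were called lower and 1 higher, Insig2, beside 29.6% of all genes called lower. Leaving out control replicate 1, control replicate 2 or KLF4 replicate 2 left 3 called, KLF4 replicate 1 left 1, and either IRF8 array, which only feeds the estimate of the spread, left 7. In these fits 0.725% to 2.1% of all genes were called lower.

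Tested against each other, the labelled groups differed in 9 of the 31 genes. Relative to KLF4-labelled cells, IRF8-labelled cells had higher Msmo1, Hmgcs1, Sc5d, Srebf1, Insig1 and Mvk and lower Fdps, Fasn and Fads2, so 6 were called higher (19.4%, against 22.7% of all genes) and 3 lower (9.68%, against 27.6%). The remaining 22 did not pass. The median log2 difference was 0.07, against -0.03 over all genes. With arrays scaled on their medians the split was 1 higher and 4 lower, beside 15.7% and 29.1% of all genes, so the division of calls rests on the scaling. The blocked fit called 12 higher (38.7%) and 7 lower (22.6%), beside 31.1% and 37.3% of all genes. The 10 calls it added were Acat2, Sqle, Cyp51, Nsdhl, Insig2 and Srebf2, higher in IRF8-labelled cells (adjusted p = 0.0199, 0.0172, 0.00304, 0.0127, 0.00469 and 0.0383), and Mvd, Scap, Acaca and Fads1, lower (0.0374, 0.04, 0.00273 and 0.0169). Without KLF4 replicate 2 the calls were 1 higher and 2 lower, without KLF4 replicate 1 they were 3 and 2, without IRF8 replicate 2 they were 3 and 1, and without IRF8 replicate 1 they were 3 and 3, beside 16.2% to 16.6% of all genes higher and 18.3% to 21.6% lower in these fits. Both differences against control use the same 2 control arrays, so their values are set side by side below and not correlated.

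**Figure D1:**
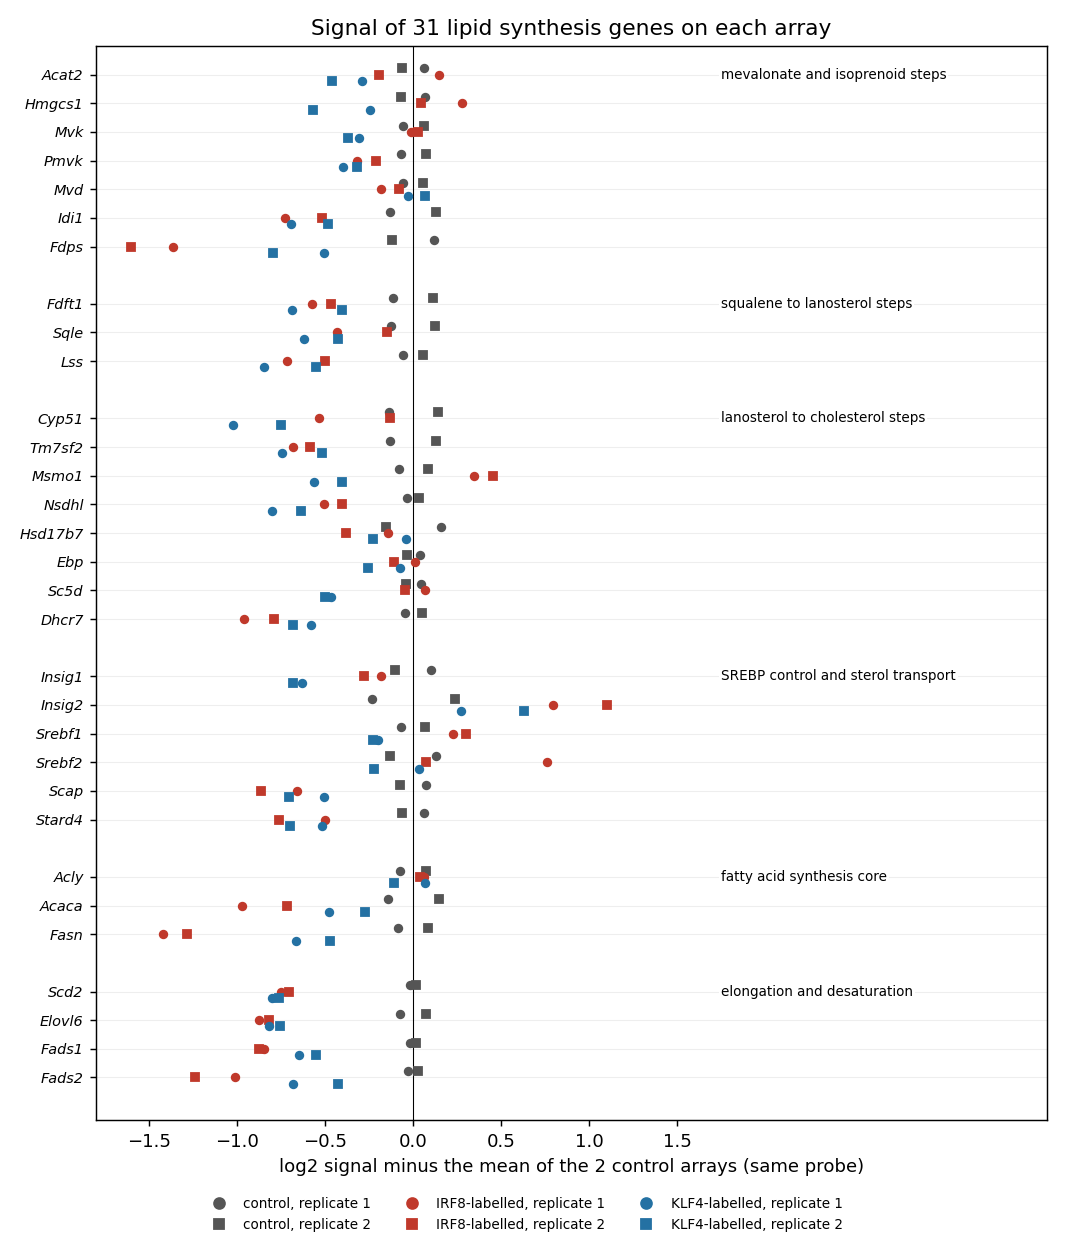
Log2 signal of each tested gene on each of the 6 arrays minus the mean of the 2 control arrays of the same probe, with genes in rows by role, circles for replicate 1 and squares for replicate 2. Most KLF4-labelled points (blue) lie left of 0, the IRF8-labelled points (red) of Fdps, Fasn and Fads2 lie among the farthest left, and those of Insig2 and Msmo1 lie right of 0.

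Among the 7 mevalonate and isoprenoid enzymes, 2 fell in IRF8-labelled cells by limma (28.6%, against 34.9% of all genes). None was called in KLF4-labelled cells, where 5.68% of all genes were called lower. At an unadjusted limma p under 0.05, 5 were lower there, beside 18.9% of all genes. Fdps, which makes farnesyl diphosphate at the branch to sterols, prenylation and ubiquinone, had log2 signals of 7.40 and 7.16 in control, 5.92 and 5.68 in IRF8-labelled and 6.78 and 6.48 in KLF4-labelled cells. The 3 groups did not overlap, and the IRF8-labelled arrays were lowest. Fdps was 2.79-fold lower in IRF8-labelled cells than in control (log2 difference -1.48 ± 0.16 SE, adjusted p = 0.00107) and 1.78-fold lower than in KLF4-labelled cells (adjusted p = 0.0107). Against control its difference in KLF4-labelled cells was -0.65 (adjusted p = 0.056, and 0.0038 with the block). Idi1, the isomerase that supplies dimethylallyl diphosphate, read 4.27 and 4.53 in control, 3.67 and 3.88 in IRF8-labelled and 3.70 and 3.92 in KLF4-labelled cells. Both labelled groups lay below control by similar amounts, -0.62 (adjusted p = 0.0162) and -0.59 (adjusted p = 0.0579, and 0.00472 with the block).

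The earlier enzymes of this arm were not called against control in IRF8-labelled cells. Hmgcs1, which condenses acetyl-CoA and acetoacetyl-CoA to HMG-CoA and carries the TCACNCCAC match printed above, read 4.61 and 4.47 in control, 4.82 and 4.58 in IRF8-labelled and 4.30 and 3.97 in KLF4-labelled cells. Its IRF8-labelled arrays overlapped control and lay above both KLF4-labelled arrays, by 0.57 ± 0.15 SE (adjusted p = 0.0316). Mvk, mevalonate kinase, read 4.71 and 4.83, then 4.76 and 4.80, then 4.46 and 4.40, and differed between the labelled groups by 0.35 (adjusted p = 0.0264), with a second Mvk probe at 0.45. Acat2, the cytosolic acetoacetyl-CoA thiolase, Pmvk, phosphomevalonate kinase, and Mvd, mevalonate diphosphate decarboxylase, were called in no comparison of the main fit. Their differences from control were -0.02, -0.26 and -0.13 in IRF8-labelled and -0.38, -0.36 and 0.02 in KLF4-labelled cells. With the block, Pmvk passed in both (adjusted p = 0.00859 and 0.0115), Mvd in IRF8-labelled cells (0.0461) and Acat2, Hmgcs1 and Mvk in KLF4-labelled cells (0.0264, 0.0174 and 0.0237). In an unblocked limma fit of every probe, a second Pmvk probe differed by -0.29 and -0.41 (adjusted p = 0.0355 and 0.0404). The second Mvk probe differed from control by -0.45 in KLF4-labelled cells in that fit (adjusted p = 0.0359). Between the labelled groups the block also called Acat2, at 0.35, and Mvd, at -0.15.

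From squalene to lanosterol, all 3 enzymes lay below control in both labelled groups. Of all genes, 55.6% lay below control in IRF8-labelled and 64.9% in KLF4-labelled cells. Lss, lanosterol synthase, read 1.77 and 1.89 in control, 1.11 and 1.33 in IRF8-labelled and 0.98 and 1.28 in KLF4-labelled cells. Neither labelled group overlapped control, and they overlapped each other, with differences of -0.61 (adjusted p = 0.0159) and -0.70 (adjusted p = 0.035). Fdft1, squalene synthase, read 2.64 and 2.86, then 2.17 and 2.28, then 2.06 and 2.35, a fall of 0.52 in IRF8-labelled cells (adjusted p = 0.0263) and a difference of -0.55 in KLF4-labelled cells (adjusted p = 0.0641, and 0.0106 with the block). A much dimmer second Fdft1 probe, above background on 2 of 6 arrays, gave 2.10 in IRF8-labelled cells, so the direction of Fdft1 rests on the brighter probe. Sqle, squalene epoxidase, differed by -0.29 and -0.52 and passed with the block alone (adjusted p = 0.00786 and 0.00689).

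Of the 8 enzymes from lanosterol to cholesterol, 6 fell in KLF4-labelled cells (75%, against 5.68% of all genes). In IRF8-labelled cells 3 fell (37.5%) and 1 rose (12.5%), against 34.9% and 26.1% of all genes. The share that fell there was near that of all genes. Msmo1, a methyl sterol oxidase that begins removal of the methyl groups of lanosterol products, was called in opposite directions in the 2 labelled groups. It read 4.94 and 5.10 in control, 5.37 and 5.47 in IRF8-labelled and 4.46 and 4.62 in KLF4-labelled cells. The 3 groups did not overlap, with IRF8-labelled arrays highest and KLF4-labelled arrays lowest. Msmo1 was 1.32-fold higher than control in IRF8-labelled cells (log2 difference 0.40 ± 0.11 SE, adjusted p = 0.0274) and fell by 0.48 in KLF4-labelled cells (adjusted p = 0.046). The labelled groups differed by 0.88 ± 0.11 SE (adjusted p = 0.00269), a call that held when each of the 6 arrays was left out in turn, whereas the rise against control held in 3 and the fall in none of those 6 fits.

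Nsdhl, the dehydrogenase that acts after Msmo1, was lower in both labelled groups. It read 1.70 and 1.77 in control, 1.23 and 1.33 in IRF8-labelled and 0.93 and 1.10 in KLF4-labelled cells, with no overlap between any groups, and fell by 0.46 (adjusted p = 0.0131) and by 0.72 (adjusted p = 0.0113). A second Nsdhl probe gave -0.07 in IRF8-labelled and -0.74 in KLF4-labelled cells, so its fall in IRF8-labelled cells rests on 1 probe. Hsd17b7, the ketoreductase that completes this demethylation, differed by -0.26 and -0.13 and was not called, though it passed in IRF8-labelled cells with the block (adjusted p = 0.0146). The promoters printed above hold 3 CCAAT matches for Msmo1, which rose in IRF8-labelled cells, and 4 for Nsdhl.

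Cyp51, the lanosterol demethylase, read 0.52 and 0.79 in control, 0.12 and 0.52 in IRF8-labelled and -0.37 and -0.10 in KLF4-labelled cells. It fell by 0.89 in KLF4-labelled cells (adjusted p = 0.0405), the most of the 31 genes there, and differed by -0.33 in IRF8-labelled cells (adjusted p = 0.193, and 0.0095 with the block). Sc5d, a sterol desaturase, read 3.51 and 3.42 in control, 3.53 and 3.42 in IRF8-labelled and 3.0 and 2.96 in KLF4-labelled cells. Its IRF8-labelled arrays sat on the control values, and its KLF4-labelled arrays lay below both, by 0.49 against control (adjusted p = 0.0276) and with 0.50 between the labelled groups (adjusted p = 0.00883). Dhcr7, the reductase of the last step of one branch, read 1.56 and 1.65, then 0.65 and 0.81, then 1.03 and 0.92, and fell by 0.88 (adjusted p = 0.00146) and by 0.63 (adjusted p = 0.0188). Tm7sf2, a sterol reductase, fell by 0.63 in both (adjusted p = 0.0122 and 0.0413), with a second probe at -0.59 in each. Ebp, the sterol isomerase, was called in neither, with differences of -0.05 and -0.16.

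**Figure D2:**
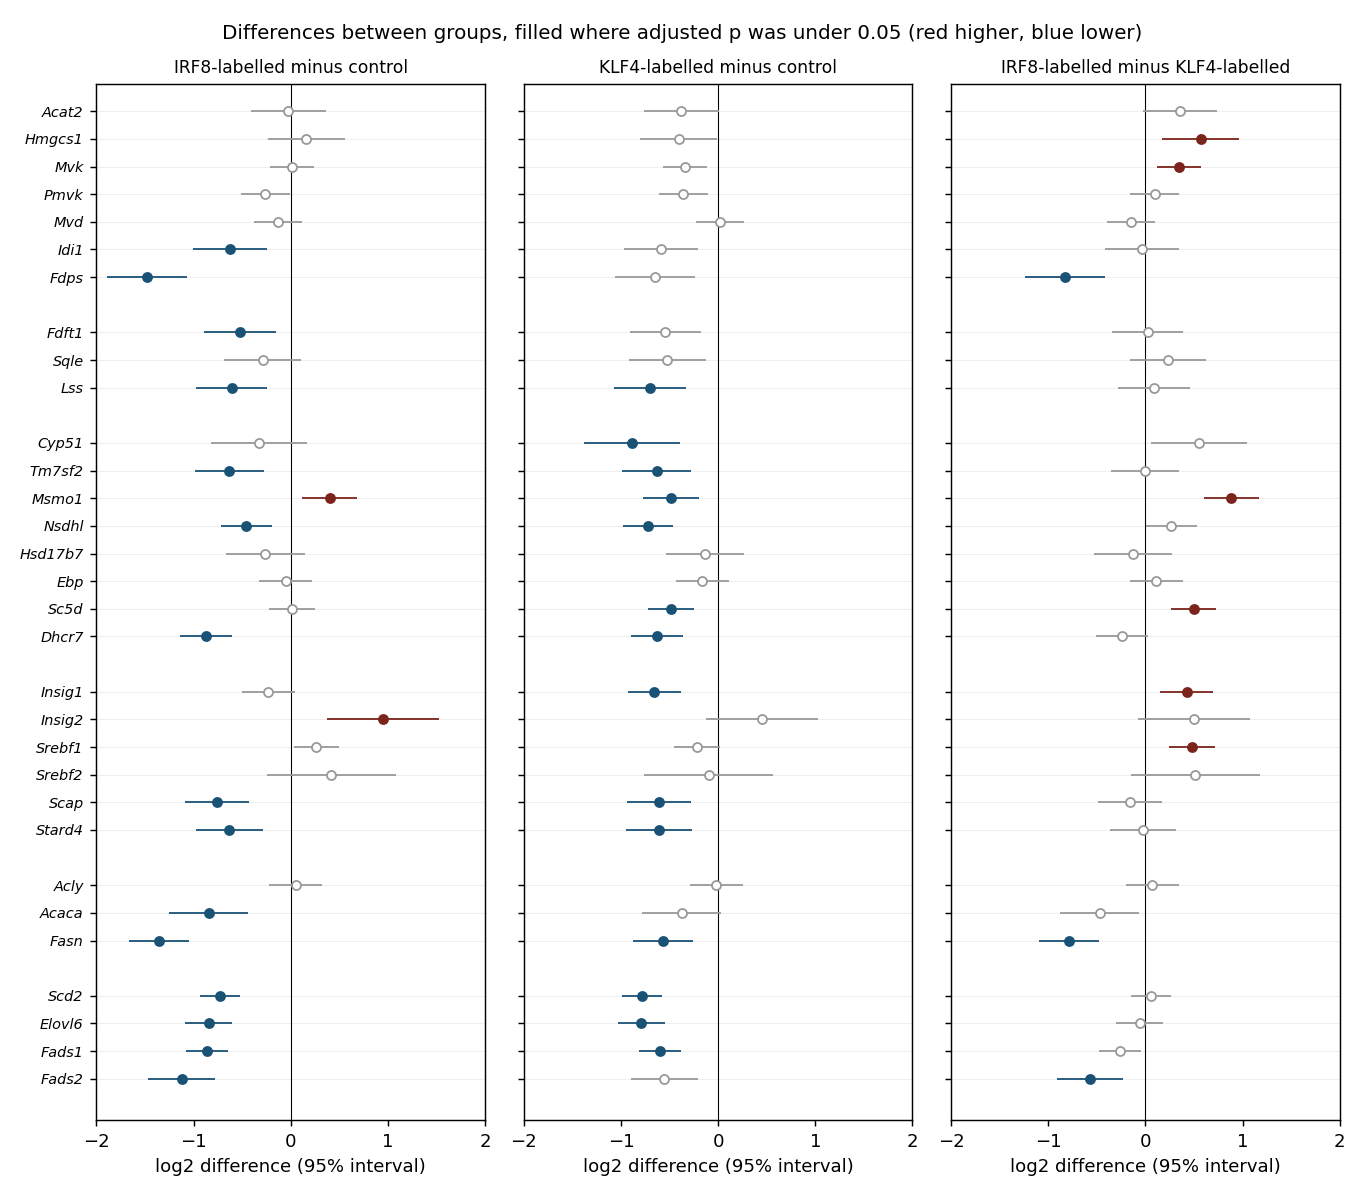
Log2 differences with 95% intervals for the 31 tested genes in the 3 comparisons, with genes in the same order as in the plot of signals by array and filled points where the limma adjusted p was under 0.05. Lower calls (blue) number 15, 14 and 3 and higher calls (red) 2, 0 and 6 from left to right, and Msmo1 is red, blue and red.

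In the control machinery, the escort Scap and the sterol carrier Stard4 fell in both labelled groups. Insig2 rose in IRF8-labelled cells, and Insig1 fell in KLF4-labelled cells. Scap read 4.97 and 4.82 in control, 4.24 and 4.03 in IRF8-labelled and 4.39 and 4.19 in KLF4-labelled cells. Both labelled groups lay below control, by 0.76 (adjusted p = 0.00485) and by 0.61 (adjusted p = 0.0377). Stard4, which moves cholesterol between membranes, read 3.37 and 3.24, then 2.80 and 2.54, then 2.78 and 2.60, falling by 0.63 (adjusted p = 0.0108) and by 0.61 (adjusted p = 0.0411). Its second probe gave -1.05 and -0.55.

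Insig1, itself a well-known SREBP target, read 0.66 and 0.45 in control, 0.37 and 0.28 in IRF8-labelled and -0.08 and -0.12 in KLF4-labelled cells. The KLF4-labelled arrays were lowest, with a fall of 0.66 (adjusted p = 0.0179), while IRF8-labelled cells differed from control by -0.23 (adjusted p = 0.117, and 0.0302 with the block) and lay 0.43 above KLF4-labelled cells (adjusted p = 0.0245). Insig2, the second sterol-sensing anchor, read 0.77 and 1.24 in control, 1.80 and 2.11 in IRF8-labelled and 1.27 and 1.63 in KLF4-labelled cells. Neither labelled group overlapped control, and Insig2 was 1.93-fold higher in IRF8-labelled cells (log2 difference 0.95 ± 0.22 SE, adjusted p = 0.0162; second probe 0.70). The difference was 0.45 in KLF4-labelled cells (adjusted p = 0.228, and 0.0137 with the block).

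Srebf1 read -0.54 and -0.40 in control, -0.24 and -0.17 in IRF8-labelled and -0.67 and -0.70 in KLF4-labelled cells, with the control arrays between the labelled groups. It differed from control by 0.26 (adjusted p = 0.056, and 0.0213 with the block) and -0.22 (adjusted p = 0.173), and by 0.48 between the labelled groups (adjusted p = 0.0104). Srebf2 read 1.55 and 1.30, then 2.19 and 1.50, then 1.46 and 1.20, and was called in no comparison of the main fit. With the block, Srebf2 was called between the labelled groups (0.52, adjusted p = 0.0383). Its IRF8-labelled arrays were 0.69 apart, and its second probe disagreed. In the unblocked limma fit of every probe, that probe gave 1.25 in IRF8-labelled and 1.21 in KLF4-labelled cells (adjusted p = 0.00803 and 0.0344). No direction is therefore given for Srebf2. An array signal does not report how much SREBP protein is cut and nuclear.

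**Figure D3:**
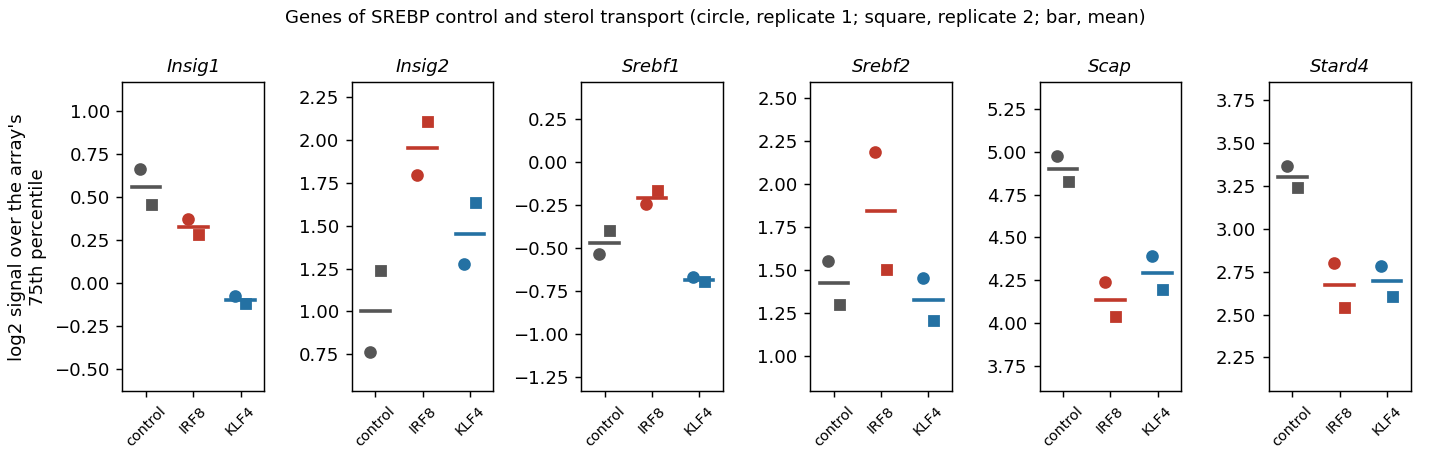
Log2 signal over the array's 75th percentile of 6 genes of SREBP control and sterol transport on each array, with bars at group means and axes of equal span. Scap and Stard4 lie lower in both labelled groups, Insig2 highest in IRF8-labelled cells and Insig1 lowest in KLF4-labelled cells, and Srebf2 varies most within a group.

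Of the 3 core fatty acid synthesis genes, Fasn and Acaca fell in IRF8-labelled cells (66.7%, against 34.9% of all genes). Fasn also fell in KLF4-labelled cells (33.3%, against 5.68% of all genes). Fasn, the synthase that builds palmitate, read 0.85 and 1.02 in control, -0.49 and -0.35 in IRF8-labelled and 0.27 and 0.46 in KLF4-labelled cells. The 3 groups did not overlap. Fasn was 2.55-fold lower than control in IRF8-labelled cells (log2 difference -1.35 ± 0.12 SE, adjusted p = 0.00056) and 1.48-fold lower in KLF4-labelled cells (adjusted p = 0.0379), and the labelled groups differed by -0.78 (adjusted p = 0.00508). Acaca, acetyl-CoA carboxylase, read 4.65 and 4.94, then 3.83 and 4.08, then 4.32 and 4.53. It fell by 0.84 in IRF8-labelled cells (adjusted p = 0.00718), where its other probes gave -0.81 and -0.54, and differed by -0.37 in KLF4-labelled cells (adjusted p = 0.17, and 0.0116 with the block). Acly, ATP citrate lyase, which supplies the cytosolic acetyl-CoA for both pathways, was not called. It read 6.30 and 6.44, then 6.43 and 6.41, then 6.44 and 6.26, with 95% intervals of the difference of -0.22 to 0.32 in IRF8-labelled and -0.29 to 0.25 in KLF4-labelled cells.

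All 4 tested elongation and desaturation genes fell in IRF8-labelled cells, against 34.9% of all genes. In KLF4-labelled cells 3 of 4 fell (75%, against 5.68% of all genes). Scd2, the desaturase that was measurable here while Scd1 was not, read 6.70 and 6.73 in control, 5.97 and 6.01 in IRF8-labelled and 5.91 and 5.95 in KLF4-labelled cells. Arrays within each group were less than 0.05 apart, and Scd2 fell by 0.73 (adjusted p = 0.00114) and by 0.79 (adjusted p = 0.00385), with 0.06 between the labelled groups (95% interval -0.15 to 0.26). It was the only one of the 14 falls in KLF4-labelled cells that was called whichever of the 6 arrays was left out. Elovl6, the elongase of palmitate, read 3.0 and 3.14, then 2.20 and 2.25, then 2.25 and 2.31, falling by 0.85 (adjusted p = 0.00115) and by 0.79 (adjusted p = 0.00633), with no CCAAT in its promoter above.

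Fads1 and Fads2, the front-end desaturases of polyunsaturated fatty acids, were lowest in IRF8-labelled cells. Fads1 read 3.17 and 3.20 in control, 2.34 and 2.31 in IRF8-labelled and 2.54 and 2.64 in KLF4-labelled cells, a fall of 0.86 (adjusted p = 0.000757) and of 0.60 (adjusted p = 0.0113). Fads2 read -0.83 and -0.78, then -1.82 and -2.04, then -1.49 and -1.23, with no overlap between groups. It was 2.18-fold lower in IRF8-labelled cells (adjusted p = 0.00146), differed by -0.56 in KLF4-labelled cells (adjusted p = 0.0527, and 0.0418 with the block) and by -0.57 between the labelled groups (adjusted p = 0.0202).

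Of the 17 calls in IRF8-labelled cells, 9 held when each of the 6 arrays was left out in turn, 6 of them fatty acid genes. They were Acaca, Dhcr7, Elovl6, Fads1, Fads2, Fasn, Fdps, Scap and Scd2. The 17 became 11 without IRF8 replicate 1. Between the labelled groups, Fasn and Msmo1 were the 2 of 9 that held. Scaled on 8 E1A spike-in probes, IRF8-labelled cells had 8 lower (25.8%) and 0 higher calls, beside 20.4% and 14.4% of all genes, and KLF4-labelled cells 0, beside 0.687% of all genes lower and 5.84% higher. That scaling put the median of all genes at -0.26 in IRF8-labelled cells, and the median of these genes at -0.47.

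Other lipid genes were counted by pathway, and each count is set against the shares of all genes called, which were 26.1% (higher) and 34.9% (lower) for IRF8-labelled cells, and 10.4% and 5.68% for KLF4-labelled cells. Among 15 tested genes of sterol uptake and intracellular transport, 8 rose and 1 fell in IRF8-labelled cells, with a median of 0.34, and 6 rose and 1 fell in KLF4-labelled cells, with a median of 0.13. Lrp1, a lipoprotein receptor, was 41.6-fold higher in IRF8-labelled cells and 14.7-fold higher in KLF4-labelled cells (adjusted p = 2.44e-05 and 0.000169). Msr1, a scavenger receptor that is also one of the macrophage markers, was not well above background in control and was at least 140-fold and at least 14.4-fold higher, a bound taken from the lowest signal well above background. Npc1, which exports cholesterol from lysosomes, was higher by log2 differences of 2.68 and 1.02 (adjusted p = 3.03e-05 and 0.00173), and Lipa, the lysosomal lipase, by 2.62 and 2.08 (adjusted p = 3.38e-05 and 0.000183).

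Of 15 genes of LXR and sterol efflux or storage, 9 were higher and 3 lower in IRF8-labelled cells (median 0.57). In KLF4-labelled cells 6 were higher and none lower by limma, with 2 lower at an unadjusted p under 0.05 (median 0.03). Abcg1, a sterol exporter, was 15.4-fold and 6.20-fold higher (adjusted p = 5.4e-05 and 0.000545). Ch25h, which makes an oxysterol that blocks SREBP processing, was not well above background in control and was at least 28.9-fold higher in IRF8-labelled and at least 14.7-fold higher in KLF4-labelled cells. Cyp27a1, a sterol hydroxylase, was at least 5.43-fold higher in IRF8-labelled cells, and Nr1h3, which encodes an LXR, 4.47-fold higher in KLF4-labelled cells, which also exceeded IRF8-labelled cells 4.62-fold. Nr1h3 differed from control by -0.05 in IRF8-labelled cells (adjusted p = 0.84).

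Of 18 other sterol and isoprenoid genes, 4 rose (22.2%) and 6 fell (33.3%) in IRF8-labelled cells, shares close to those of all genes (median -0.24), with Lbr, a sterol reductase and lamin receptor, at -2.11, Pdss2, of ubiquinone synthesis, at -1.10 and Cyb5r3, a cytochrome b5 reductase, at 1.17. In KLF4-labelled cells 1 rose and 2 fell, with Cyb5r3 at 0.51 and Pdss2 at -0.53 (median -0.20). Among 17 genes of SREBP processing and sterol-dependent degradation, 4 rose (23.5%) and 7 fell (41.2%) in IRF8-labelled cells. The shares of all genes were 26.1% and 34.9%. The NF-Y subunits Nfyb (-0.79) and Nfyc (-0.73) were among those that fell. Nfya, another NF-Y subunit, differed by -0.03 and was not called (limma adjusted p = 0.765). In KLF4-labelled cells 1 of these 17 was called, Erlin1, at -0.34, which also fell by 0.41 in IRF8-labelled cells.

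Other fatty acid synthesis genes numbered 4 higher and 10 lower of 21 in IRF8-labelled cells (median -0.30) and 2 higher and none lower in KLF4-labelled cells, where 7 were lower at an unadjusted p under 0.05 (median -0.17). Fads3, a relative of Fads1 and Fads2, was 25.9-fold and 3.21-fold higher, and Me1, malic enzyme, which supplies NADPH for lipid synthesis, was 4.32-fold and 2.12-fold higher. Elovl3 was not well above background in IRF8-labelled cells and at least 4.88-fold lower there. Fatty acid activation and glycerolipid genes were 3 higher and 7 lower of 14 in IRF8-labelled cells, with Lpin1, a phosphatidate phosphatase, 7.14-fold higher, Agpat3, an acyltransferase, at least 21.1-fold higher and Dgat2, of triglyceride synthesis, 3.75-fold lower. In KLF4-labelled cells 3 were higher and 2 lower, with Agpat3 at least 10.4-fold higher, Mgll, monoglyceride lipase, 2.15-fold higher and Lpin2 1.68-fold lower. In IRF8-labelled cells Mgll went the other way, at -1.74 on the log2 scale (adjusted p = 0.000607), and Lpin2 was lower too, at -0.75 (adjusted p = 0.00595). Of 19 fatty acid oxidation genes, 7 rose and 2 fell in IRF8-labelled cells, with Cpt1a, which admits fatty acids to mitochondria, 2.52-fold higher and Eci1, an enoyl-CoA isomerase, 3.31-fold lower. None was called in KLF4-labelled cells by limma, where 2 were higher and 3 lower at an unadjusted p under 0.05.

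**Figure D4:**
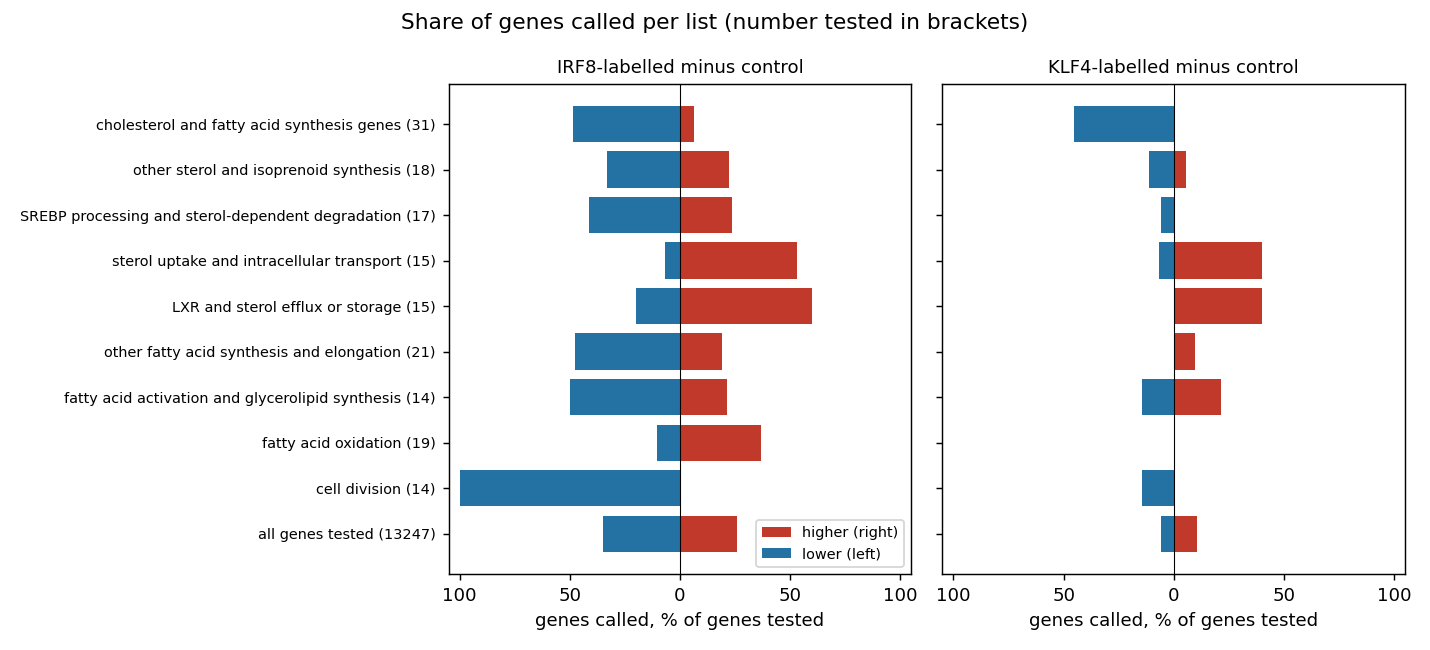
Share of the tested genes of each list called lower (left, blue) and higher (right, red) against control, with all 13247 genes in the last row. In KLF4-labelled cells the cholesterol and fatty acid synthesis genes have 45.2% lower, against 5.68% of all genes, and the uptake and LXR lists have 40.0% higher.

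Markers of cell division and of other cells moved beside these genes. All 14 tested cell division genes fell in IRF8-labelled cells (median -1.30, Mcm5 3.07-fold lower) and 2 of 14 in KLF4-labelled cells (median -0.27, Tyms 1.43-fold lower). The summed signal of the list was 726 and 763 in control, 301 and 336 in IRF8-labelled and 591 and 614 in KLF4-labelled cells. Progenitor markers summed to 160 and 170, 29.1 and 31.1, and 120 and 119, and of 6 tested, IRF8-labelled cells had 1 higher and 3 lower, and KLF4-labelled cells had 2 lower. In IRF8-labelled cells Prom1 was 14.3-fold and Myb 6.25-fold lower, and Cd34 at least 4.42-fold higher. Monocyte markers rose in 9 of 10 and 7 of 10 genes, and neutrophil and granule markers fell in 9 of 10 and 5 of 10. Of 10 fibroblast and packaging cell markers, 4 to 6 were above background on an array. Their sums were 48.2 and 50.5, 300.4 and 238, and 89.9 and 89.2, carried mostly by Vim, which leukocytes also express. Of 5 tested, limma called 3 up and 1 down under the IRF8 label, and 3 up and none down under KLF4. Thy1 moved by -0.75 under the IRF8 label and by 4.47 under KLF4 on the log2 scale (limma adjusted p = 0.0336 and 0.000332). For Acta2 these values were 1.66 and 0.76 (adjusted p = 0.000593 and 0.0321). Of 10 hepatocyte and adipocyte markers, 1 to 3 were above background, and Fabp4, which macrophages express too, was at least 283-fold higher in IRF8-labelled cells. The part these lists play in the differences of the lipid genes was not tested. In RNA from whole cultures, fewer cells of a type and less RNA of a gene per cell cannot be told apart.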

How the data were processed

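Total RNA from 6 cultures was read on single-colour (Cy3) Agilent arrays of 62976 spots, annotated on mm9. Per the file headers, the deposited intensity is the processed signal of Agilent's Feature Extraction software, version 10.7.3.1, with background removed within each array and nothing normalized between arrays. The authors' value table also holds intensity, equal to the processed signal times 1 factor per array (0.642 to 1.39) for all but 178 to 221 probes.

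Control spots were left out, spots of a probe were averaged, and log2 of the signal minus each array's 75th percentile was used. Probe accessions were matched to RefSeq genes (GRCm38.p6; 26762 of 28390 RefSeq-form probes), so no gene coordinates are given beyond promoters. The brightest probe stood for each gene, and signals of different probes were not compared. A gene entered the test when, in 1 group or more, both arrays read it well above background. Well above background began at log2 -5.11 to -4.07. Single fits with limma 3.58.1 in R 4.3.3 took 3 groups and 6 arrays (3 residual degrees of freedom), two-sided, with Benjamini-Hochberg adjustment over 13247 genes. SE and 95% intervals come from this fit. Simulated data without pairing were used to check the size of its estimated changes, and the SE and intervals were not checked. With 2 arrays a group, an exact permutation test cannot go below p = 0.333, so none was used, and the number of arrays limits the precision.

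Replicate numbers were taken to stand for the 2 experiments, which the sample titles do not state. Each number also has its own slide, so experiment and slide cannot be told apart. Deviations from group means correlated at 0.28, 0.32 and 0.39 between same-numbered arrays of each pair of groups. The 75th percentile was 362 to 463 on replicate 1 arrays and 709 to 784 on replicate 2 arrays. The correlations therefore show shared deviations of same-numbered arrays and cannot show whether these come from the cultures or the slide. Blocked values are given where they change a call. The mean signal column named for the normexp alternative was not used, and the median signal with offset 50 stood in its place. The genes, lists, tests and rules were chosen with earlier results of these data known. All 32 genes are named; of other lists, up to 3 called genes with the largest change per comparison, plus Irf8 and Klf4. Some genes that this rule would name are not reported here. Alternatives comprised scaling, background, filters, probe choice, the limma options, the block and leaving out each array.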

Additional observations from a re-analysis of the deposited data

How the results depend on the processing

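Counts of calls depended on the processing more than directions did. In IRF8-labelled cells against control, 8 of the 17 calls held in all 19 alternative settings with a test (Fdps, Dhcr7, Scap, Acaca, Fasn, Elovl6, Fads1 and Fads2), and in the other comparisons 0 of 14 and 0 of 9 did. For IRF8-labelled cells against control, spike-in scaling gave 8 calls, all lower, in place of 17 (15 lower). Higher calls were 2, and became 1 with median scaling, normexp or no filter, 0 with spike-in scaling, and 4 with the mean of a gene's probes or the second brightest probe. Leaving out 1 array gave 11 to 17 calls, 0 to 2 higher and 10 to 15 lower. For KLF4-labelled cells, the 14 lower calls became 2 with median scaling or no filter, 0 with spike-in scaling, 7 with normexp or with only the groups compared, and 24 with the replicate block, which with 1 higher made 25; the second brightest probe also gave 1 higher. Leaving out 1 array gave 1 to 7 calls, with 0 higher. Of all genes, 64.7% of the main KLF4 calls were higher, against 87.8% with median scaling, 89.5% with spike-ins and 82.6% with normexp. The median of the 31 genes in KLF4-labelled cells stayed at -0.46 to -0.56 over the alternatives. Between the labelled groups, the 9 calls (6 higher, 3 lower) became 5 with median scaling (1 higher), 1 with spike-ins (0 higher, 1 lower), 5 without the filter (3 higher) and 19 with the block (12 higher, 7 lower). Lower calls were 5 with genes above background on all arrays, the mean of probes, the second brightest probe, or trend and robust options. Leaving out 1 array gave 3 to 9 calls, 1 to 6 higher and 1 to 3 lower. Of all genes, 45.1% of these calls were higher, against 35.1% with median scaling. Calls in the 7 other pathway lists were 75, 24 and 66 for the 3 comparisons in the order above, and 37, 9 and 16 with spike-ins; KLF4-labelled cells had 15 with normexp, 12 without the filter and 55 with the block. Leaving out 1 array gave 60 to 69, 11 to 17 and 36 to 66. Median scaling and spike-ins moved the median of all genes between the labelled groups from -0.03 to -0.17 and -0.16. Called directions reversed 3 times: Fdft1 in IRF8-labelled cells was 0.79 with the mean of its probes and 2.10 with its second probe, and Srebf2 in KLF4-labelled cells was 1.21 with its second probe, called there and not in the main result. The fit with the replicate block reversed no call and removed none. The cause of these changes was not tested, except that only the groups compared, and leaving out an array, leave fewer samples for the spread. Each group has 2 arrays, and 47.1% to 56.8% of probes were well above background on an array.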
